A study of Felis catus with 12 samples.

Results

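The 10 genes described here encode ligands, receptors and SMAD proteins of the TGF-beta family, out of 30785 genes listed for the left ventricle of the cat. They were the ligands TGFB1, TGFB2 and TGFB3, the activin beta B subunit INHBB, the receptors TGFBR1 and TGFBR2 with the co-receptor TGFBR3, and the intracellular proteins SMAD2, SMAD3 and SMAD7. Of these, 9 were chosen as members of the pathway, whereas INHBB was selected on its measured level, which rose with myocardial fibrosis in these same cats. The relation of INHBB with fibrosis is therefore given as a description without a test.

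TGF-beta ligands are secreted in a latent form that is stored in the extracellular matrix and released by integrins, thrombospondin and proteases. The active ligand binds the type II receptor TGFBR2, which recruits and phosphorylates the type I receptor TGFBR1, and this in turn phosphorylates SMAD2 and SMAD3, which enter the nucleus with SMAD4 and change transcription. In the heart the pathway is best known for turning fibroblasts into matrix-producing myofibroblasts, and activins, built from inhibin beta subunits, use related receptors and the same SMAD proteins.

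Direct RNA sequencing on Oxford Nanopore flow cells, which reads RNA molecules without conversion to cDNA, was applied to the left ventricular free wall of 12 domestic cats, with 1 library per cat. The cats were patients with natural disease that received no experimental treatment. The group with congestive heart failure (congestive HF) had 6 cats, among them a Birman and 2 Maine Coons, and the group with arterial thromboembolism (ATE, a clot that lodges in an artery) had 3 domestic shorthairs. A domestic shorthair with renal failure was the only cat without known cardiac death, so that this group had no replicate. The labels of the remaining 2 libraries, cats 22 and 29, did not match the list of sequenced cats, and these libraries entered the comparison of flow cells but, apart from named alternatives, no comparison of traits or outcomes. Age was known for 9 of the 10 cats with a group and myocardial fibrosis for 8. Replicates are different cats, and differences between cats cannot be told apart from differences between libraries.

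Libraries had 789257 to 2263110 reads on genes. Values are reads per gene divided by 1 size factor per library, here called deposited values, and 1 read was worth 0.483 to 1.43. Each of the 3 flow cells held 4 libraries. Between flow cell A and the other libraries, 446 of 8715 tested genes differed and 5 of 8 tested cardiomyocyte markers were lower on flow cell A, whereas flow cell B differed from the other libraries in 2 genes and flow cell C in 0 (limma, 981 and 727 genes at an unadjusted p under 0.05, comparisons added after the data were seen). The summed deposited value of 8 cardiomyocyte markers was 108325 to 230610, so that heart muscle RNA was abundant in every library. Results on the flow cells are given after those on traits and outcomes.

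The members were detected at a low level, and 8 of 10 reached the minimum for testing, 10 reads in at least 3 of the 10 libraries with a group. TGFBR2 had 1391 reads over the 12 libraries, SMAD2 387, TGFB1 312, TGFBR3 294, INHBB 291, TGFBR1 256, SMAD7 182 and TGFB2 108. TGFB3 and SMAD3 had 40 and 45 reads and were not tested. TGFB2 reached the minimum only through the 4 libraries of flow cell A, where it was high, so that its comparison between flow cells is given as a description. These totals were not divided by transcript length, and they describe precision rather than the order of expression. The coefficient of variation of the deposited value over 12 libraries was above that given by counting error alone for all 10 members. It was 32.8% against 10.0% for TGFBR2 and 59.9% against 21.4% for TGFB1. For SMAD3 it was 98.5% against 56.8%, so that counting error made up a larger part of the spread.

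**Figure D1:**
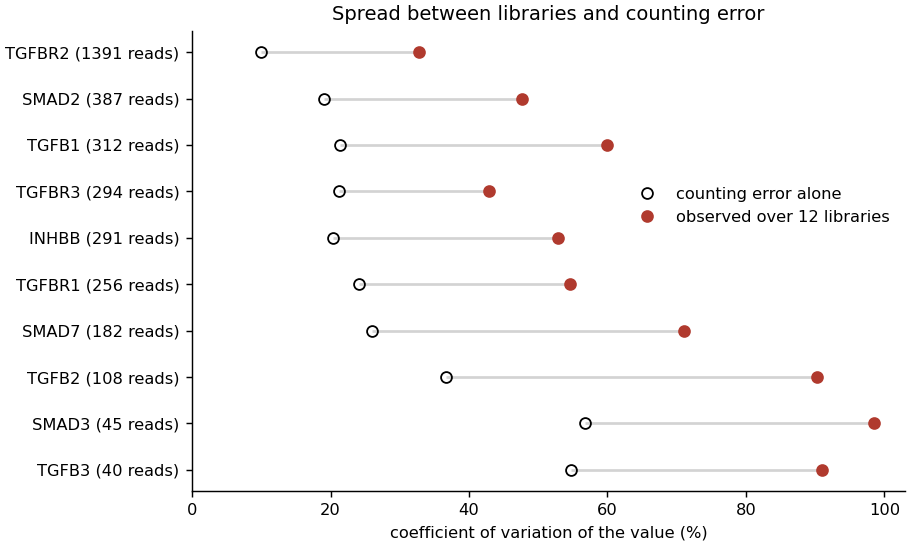
Coefficient of variation of the deposited value over 12 libraries for each member (filled circles, %) beside the coefficient that counting error alone would give (open circles), with the total number of reads. Every filled circle lies to the right of its open circle, from 32.8% for TGFBR2 to 98.5% for SMAD3.

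Among the ligands, TGFB1, which is the isoform most often linked to fibrosis, was found in all 12 libraries. Its deposited value on flow cell A was 41.0 in cat 11, 37.5 in cat 31, 27.8 in cat 30 and 16.1 in cat 23. On flow cell B it was 31.3 in cat 15, 16.9 in cat 36, 11.8 in cat 35 and 10.1 in cat 10. On flow cell C it was 43.2 in cat 22, 19.1 in cat 38, 8.87 in cat 29 and 4.29 in cat 37. High and low values thus occurred on flow cells B and C, whereas no value on flow cell A was below 16.1. The median was 32.6 on flow cell A and 14.4 over flow cells B and C. The lowest value of the 12 libraries rested on 3 reads.

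TGFB2, the isoform known for its role in the developing heart valves, had a different layout. It was 20.3 in cat 11, 16.1 in cat 23, 9.57 in cat 31 and 8.42 in cat 30 on flow cell A, whereas on flow cell B it was 3.56 in cat 36, 1.36 in cat 15, 1.13 in cat 10 and 0 in cat 35. On flow cell C it was 16.2 in cat 22, 7.15 in cat 37, 5.88 in cat 38 and 1.11 in cat 29. The libraries of flow cells A and B did not overlap, and flow cell C held values of both ranges. Such a separation was found for 5.76% of all genes with flow cell A higher and 6.08% with flow cell B higher. TGFB2 reached the read minimum only through flow cell A, which favoured a separation in this direction. It is therefore a description, and the share over all genes is no test of it. In cat 35, 0 reads allow a deposited value of up to 2.36 (3 reads).

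The share of TGFB2 among the TGF-beta reads was also computed within each library, which needs no scaling between libraries. Of the reads on TGFB1, TGFB2 and TGFB3, TGFB2 made up 19.7% to 40.0% in the libraries of flow cell A, 0% to 17.4% on flow cell B and 9.09% to 35.7% on flow cell C. The shares of flow cells A and B did not overlap, but they use the same TGFB2 reads and are no separate support. The exact (Clopper-Pearson) 95% intervals were wide, such as 10.6% to 31.8% in cat 31 (12 of 61 reads) and 4.95% to 38.8% in cat 36 (4 of 23 reads). Intervals and limits of this kind cover counting error only.

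TGFB3, the least abundant by reads, had deposited values of 0 to 8.58 and at most 7 reads in a library. It had 0 reads in cats 15 and 36, which allows deposited values of up to 4.08 and 2.67. The highest values were 8.58 in cat 37 and 8.06 in cat 23, from 6 reads each.

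INHBB, which forms activin B as a dimer, was detected in every library with 7 to 46 reads. Flow cell A gave 44.3 in cat 23, 28.7 in cat 31, 22.2 in cat 11 and 15.99 in cat 30. On flow cell B it was 49.0 in cat 15, 23.7 in cat 10, 9.45 in cat 35 and 6.23 in cat 36. On flow cell C it was 31.5 in cat 37, 29.7 in cat 22, 20.0 in cat 29 and 13.97 in cat 38. Both the highest and the lowest value were on flow cell B.

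Of the receptors, TGFBR2, which binds the ligand first, was the member with the smallest relative spread. In the 6 cats with congestive HF its deposited value was lowest at 70.1, had a median of 118 and was highest at 155. In the cats with ATE it was 73.3 in cat 10, 72.5 in cat 23 and 58.1 in cat 38, and it was 81.9 in the cat without known cardiac death. The libraries with ATE lay at the low end of this order, and the cat without known cardiac death lay between them and 5 of the 6 cats with congestive HF.

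TGFBR1, the type I receptor that carries the signal to SMAD2 and SMAD3, was highest in cat 11 at 37.6 and in cat 35 at 33.1, both with congestive HF. In the other 4 cats with congestive HF it was 26.3 in cat 31, 16.3 in cat 15, 14.3 in cat 37 and 11.8 in cat 30. The cats with ATE had 13.53 in cat 10, 12.1 in cat 23 and 8.82 in cat 38, within or below the lower part of the congestive HF range. The share of TGFBR2 in the reads on both signalling receptors ranged from 79.1% (exact 95% interval 74.6% to 83.1%, 373 reads) in cat 11 to 94.9% (89.8% to 97.9%, 138 reads) in cat 29. The intervals of these 2 libraries did not overlap, whereas the interval of cat 11 overlapped those of 9 of the remaining 10 libraries.

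TGFBR3, or betaglycan, which presents TGFB2 to the signalling receptors, varied little on flow cell A, with 25.6 in cat 11, 25.5 in cat 23, 25.3 in cat 30 and 19.1 in cat 31. On flow cell B it was 25.9 in cat 15, 24.9 in cat 36, 15.7 in cat 35 and 13.53 in cat 10. On flow cell C the library of cat 29 stood out with 48.8, against 18.9 in cat 22, 16.9 in cat 38 and 11.4 in cat 37.

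SMAD2, a receptor-activated SMAD that transmits TGF-beta and activin signals, was 52.4 in cat 23, 42.5 in cat 11, 33.7 in cat 30 and 29.5 in cat 31 on flow cell A. On flow cell B it was 42.7 in cat 36, 22.8 in cat 35, 13.6 in cat 15 and 7.89 in cat 10. On flow cell C it was 31.6 in cat 38, 27.2 in cat 37, 20.3 in cat 22 and 13.3 in cat 29. The lowest library of flow cell A lay above 6 of the 8 libraries of the other flow cells.

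SMAD3, which binds DNA at many TGF-beta target genes, had 0 to 12 reads per library and deposited values of 0 to 8.06. It had 0 reads in cats 10, 36 and 37, which allows deposited values of up to 3.38, 2.67 and 4.29, and it was not tested between groups. SMAD7, the inhibitory SMAD that pathway activity itself induces, ranged from 4.45 in cat 36 to 43.2 in cat 22. Its next highest value was 25.9 in cat 15, and the other 9 libraries lay between 5.54 in cat 29 and 17.2 in cat 37.

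**Figure D2:**
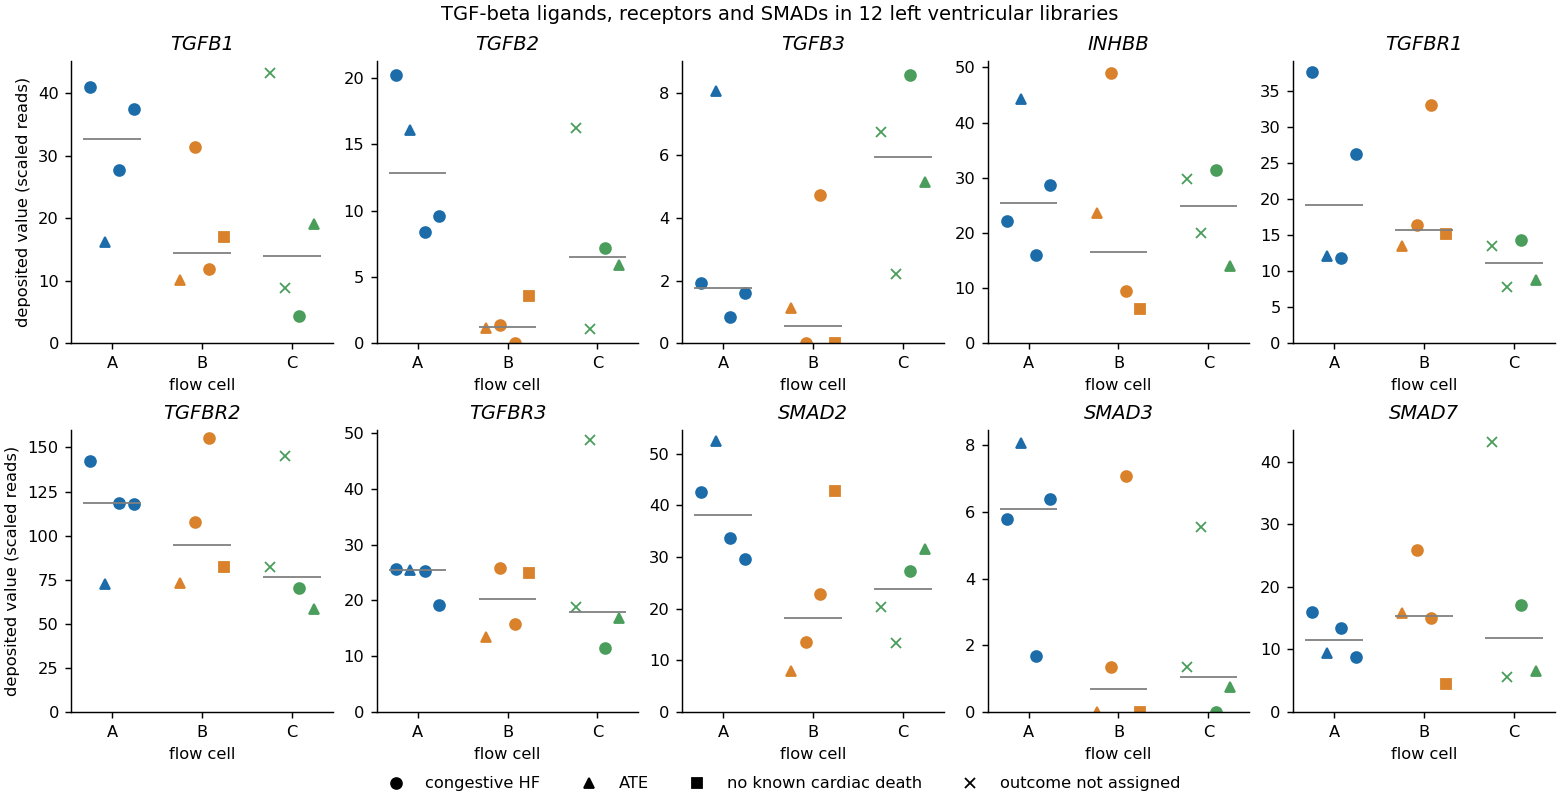
Deposited value (scaled reads, linear axes) of each member in 12 libraries by flow cell, with 1 point per cat, the shape giving the outcome and the grey line the median of the 4 libraries on a flow cell. TGFB2 lies between 8.42 and 20.3 on flow cell A and between 0 and 3.56 on flow cell B, whereas TGFB1, INHBB and SMAD7 have high and low points on several flow cells.

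To describe how the members varied with scarring, libraries were placed in order of the myocardial fibrosis percentage of the cat, measured on trichrome-stained sections by the study. For INHBB, the 4 cats with the least fibrosis had deposited values of 9.45 (cat 35), 15.99 (cat 30), 13.97 (cat 38) and 6.23 (cat 36). The 4 cats with the most fibrosis had 23.7 (cat 10), 22.2 (cat 11), 49.0 (cat 15) and 44.3 (cat 23). The 2 sets did not overlap, which is the pattern that INHBB was chosen for (0.884% of all genes were higher in each of the 4 upper cats and 0.872% lower). Spearman's rho was 0.786 and Pearson's r of log2(value + 1) was 0.874, which became 0.592 without cats 15 and 23, the cats farthest from the median fibrosis, and 0.878 within flow cells (values centred by flow cell, 7 cats). The whole tissue was sequenced, so that fewer cells of a type and less RNA per cell cannot be told apart here or in the comparisons that follow.

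Of the 7 other members tested with fibrosis, 0 passed an adjusted p of 0.05 (Spearman's rho in 8 cats, two-sided exact permutation test, Benjamini-Hochberg over 8715 genes), beside 0% of all genes. At an unadjusted p under 0.05 there were also 0, beside 2.83% of all genes. The smallest p that 8 cats allow, 4.96e-05, would not bring a single gene past this threshold. The rho was positive for 6 of the 7, with a median of 0.238 against 0 for all genes, of which 48.6% were positive, and without scaling of the libraries it was positive for 1 of the 7, beside 13.1% of all genes.

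TGFBR3 had the highest rho of these members, 0.619 (exact permutation p = 0.115, adjusted p = 1). The Pearson correlation, r = 0.409 (exact permutation p = 0.292), became -0.00986 without cats 15 and 23 and so rested on those cats. Within flow cells it was 0.348 (exact permutation p = 0.514, 7 cats). TGFBR3 took 2 levels in these cats, 24.9 to 25.9 in cats 30, 36, 11, 15 and 23 and 13.53 to 16.9 in cats 35, 38 and 10, so that a high level occurred with little and with much fibrosis. TGFB2 and SMAD7 followed with rho of 0.405 and 0.310. TGFBR2 alone was negative at -0.357, its highest value (155) being in cat 35, the cat with the least fibrosis. TGFB1 had a rho of 0.214, and its values in the cats with the most fibrosis, 31.3 in cat 15 and 16.1 in cat 23, lay within the range of the other cats.

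**Figure D3:**
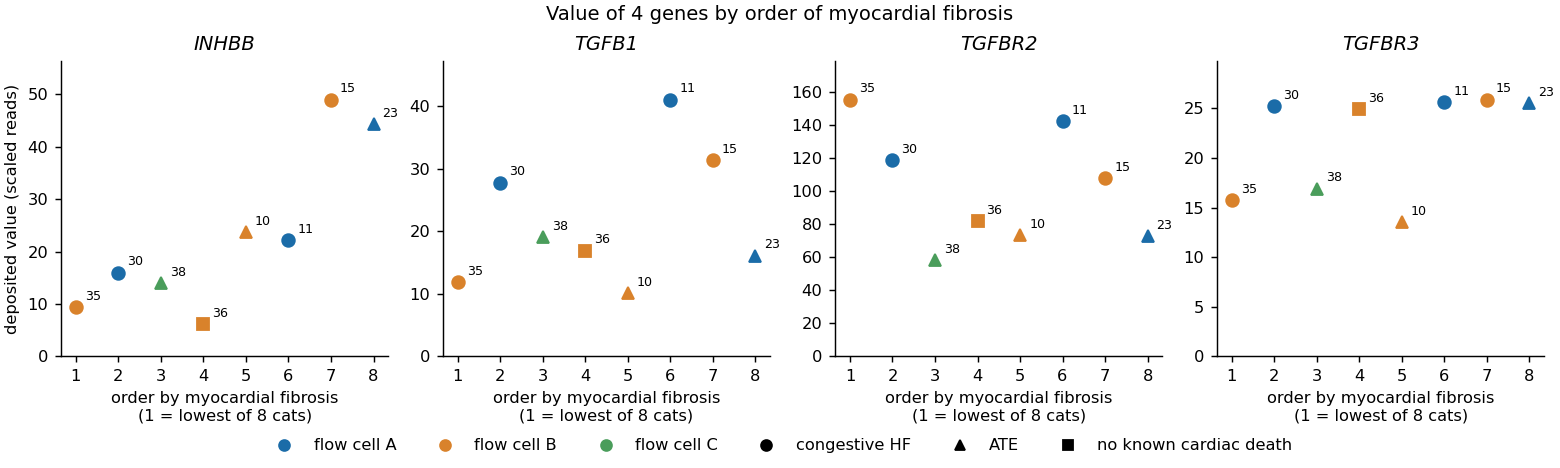
Deposited value (scaled reads) of INHBB, TGFB1, TGFBR2 and TGFBR3 against the order of 8 cats by myocardial fibrosis (1 is the lowest), with cat numbers, the colour giving the flow cell and the shape the outcome. INHBB stays at or below 15.99 in the 4 lower cats and at or above 22.2 in the 4 upper ones, a pattern it was chosen for, and the other 3 genes show no such separation.

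Age was compared in the same way in 9 cats, and the comparisons of fibrosis, age and outcome share most of their libraries. Of the 8 members tested with age, 0 passed the adjusted threshold, beside 0% of all genes, and 0 passed an unadjusted p of 0.05, beside 4.76% of all genes. The rho was positive for 3 of 8, beside 46.6% of all genes, and the median was -0.05 against -0.0167 over all genes.

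SMAD7 had the largest rho with age, 0.567 (exact permutation p = 0.121, adjusted p = 0.918). With Pearson's method r was 0.559 (exact permutation p = 0.119), and leaving out cats 15 and 30, or cats 30 and 36, the pairs farthest from the median age, gave 0.458 and 0.505. Within flow cells r was 0.569 (exact permutation p = 0.122). When each cat was left out, the rho ranged from 0.381 (without cat 36) to 0.714 (without cat 11 or cat 30). The lowest SMAD7 value, 4.45, was that of cat 36, the youngest of the 9 cats, but cat 30, the oldest, had 13.47, below cats 15, 37, 11 and 10.

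INHBB had a rho of 0.5 with age (exact permutation p = 0.178, adjusted p = 0.929). Its r was 0.469 (exact permutation p = 0.205), 0.731 and 0.782 without these same pairs, and 0.453 within flow cells (exact permutation p = 0.299). The rho became 0.286 without cat 36, 0.833 without cat 30 and 0.042 without scaling of the libraries. INHBB was chosen for its rise with fibrosis in mostly the same cats, so that its values with age are not independent of that choice. Cat 30 had 15.99, below 6 of the other 8 cats. TGFBR1 had a rho of -0.450 (exact permutation p = 0.23, adjusted p = 0.955) and an r of -0.425 (exact permutation p = 0.259), which was -0.438 and -0.446 without these pairs and -0.598 within flow cells (exact permutation p = 0.288). Its rho was -0.0727 when cats 22 and 29 were entered. The other 5 members had rho between -0.2 and 0.25.

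Outcome was compared between the 3 cats with ATE and the 6 with congestive HF (limma on log2(value + 1)). TGFBR2 had 68.0 ± 8.56 in ATE (SD, n = 3) against 119 ± 29.6 (SD, n = 6). Its log2 difference of -0.76 ± 0.28 (SE) passed the unadjusted threshold of 0.05 but not the adjusted one (limma adjusted p = 0.96). Of the 8 members, 0 passed the adjusted threshold, beside 0% of all genes, and 1 passed the unadjusted one, beside 4.41% of all genes. No member had every library with ATE above or below every library with congestive HF, beside 0.998% and 1.18% of all genes.

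On each flow cell, the library with ATE had less TGFBR2 than every library with congestive HF, as was so for 4.15% of all genes, with 4.75% higher in this way. The other 7 members showed neither pattern. It was 72.5 against 118, 119 and 142 on flow cell A, on flow cell B 73.3 against 108 and 155, and on flow cell C 58.1 against 70.1. Over all flow cells the groups overlapped only through cat 37. With flow cell as a covariate the difference was -0.66 (adjusted p = 0.908), and leaving out each cat in turn gave -0.90 to -0.65, with the lowest adjusted p, 0.588, without cat 37.

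TGFBR1 had a mean of 11.5 ± 2.41 in ATE (SD, n = 3) against 23.2 ± 10.7 (SD, n = 6), a log2 difference of -0.85 ± 0.41 (limma adjusted p = 0.96). Its groups overlapped, since cat 30 with congestive HF had 11.8. SMAD7 and TGFB1 differed by -0.57 ± 0.41 and -0.47 ± 0.59, within the spread of the groups. TGFBR3, SMAD2, INHBB and TGFB2 differed by -0.15 to 0.10. In all, 2 of 8 members had a positive difference, beside 50.2% of all genes, with a median of -0.309 against 0.002, and without scaling of the libraries 8 of 8 were lower, beside 31.2% of all genes that were then positive and a median of -0.21.

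Cell type markers moved between these groups as well. Macrophage markers were lower in ATE for 6 of 7 genes, with a summed deposited value of 209 to 286 against 139 to 1303. Smooth muscle and pericyte markers were lower for 3 of the 4 tested, with 121 to 201 against 152 to 754, and RGS5, a pericyte gene, differed by -1.01 (limma adjusted p = 0.96). Fibroblast markers were higher for 6 of 6 genes, with 357 to 1052 against 262 to 569, and cardiomyocyte markers for 8 of 8, with 122516 to 193944 against 108325 to 178734. Endothelial markers were lower for 5 of 7 genes, with 552 to 958 against 529 to 1472. None of these markers passed the adjusted threshold, and their part in the lower receptor values was not tested.

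**Figure D4:**
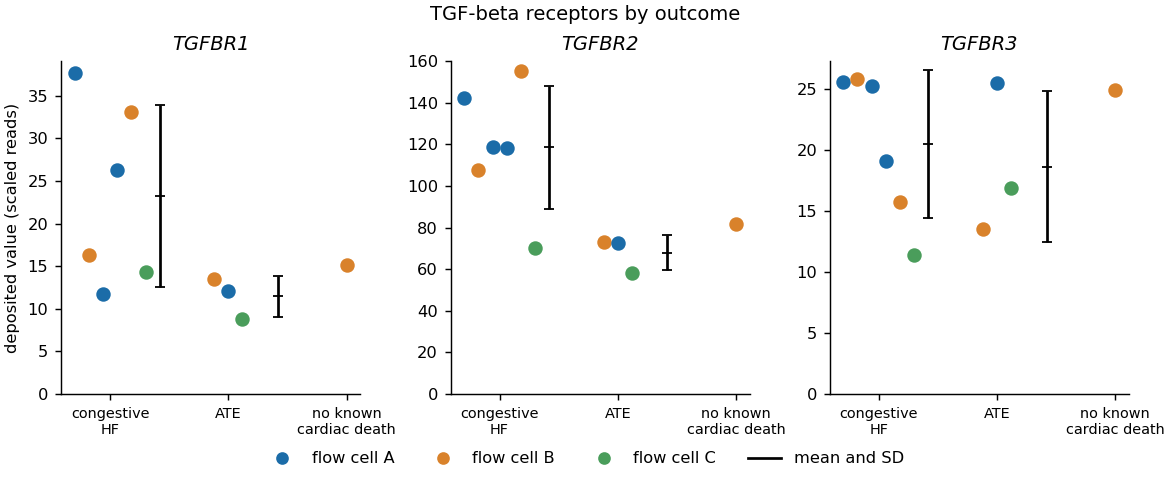
Deposited value (scaled reads) of TGFBR1, TGFBR2 and TGFBR3 by outcome, 1 point per cat coloured by flow cell, with the mean and SD of each group beside its points (none for the single cat without known cardiac death). TGFBR2 lies at 58.1 to 73.3 in the 3 cats with ATE and above 100 in 5 of the 6 cats with congestive HF, and TGFBR3 overlaps throughout.

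The 4 libraries of flow cell A were compared with the 8 others, since the flow cell was the batch that the library names gave. TGFB2 had 13.6 ± 5.60 (SD, n = 4) against 4.55 ± 5.34 (SD, n = 8), a log2 difference of 1.85 ± 0.66 that is given without a test, since TGFB2 would not have been tested had it been low there. SMAD2 was 39.5 ± 10.1 against 22.4 ± 11.3, a difference of 0.91 ± 0.37 (limma adjusted p = 0.154), and TGFB1 differed by 0.92 ± 0.47 (adjusted p = 0.266). Of the other 7 members, 0 passed the adjusted threshold, beside 5.12% of all genes, and SMAD2 alone passed the unadjusted one, beside 21.4% of all genes.

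The size of the TGFB2 difference depended on the libraries it was set against. It was 2.66 against flow cell B alone and 1.04 against flow cell C alone, where the library of cat 22 had 16.2. The other 5 members differed by -0.17 (SMAD7) to 0.45 (TGFBR1). Apart from TGFB2, the difference was positive for 6 of 7 members, beside 52.4% of all genes and 48.3% of the 7523 genes that reached the read minimum outside flow cell A. Without scaling of the libraries it was also positive for SMAD7, beside 75.2% of all genes, with a median of 0.41.

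The wider pathway was examined in 7 lists with 151 gene symbols, some of them synonyms of one gene, and 89 genes were tested. On flow cell A, 13 of the 89 passed the adjusted threshold, all of them higher, beside 1.62% of all genes called higher. Of these 13, 4 reached the read minimum only through flow cell A, as did 14 of the 89 genes, and they are set aside as calls. Of the remaining 75 genes, 9 were called, beside 122 of 7523 genes in all, with a median difference of 0.409 against -0.0261. They were 5 of 19 fibrotic target genes, 3 of 12 genes of ligand latency and activation and 1 of 20 intracellular regulators. Of the ligands, receptors, SMADs and extracellular antagonists, 0 were called.

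Among the fibrotic targets, TNC, a matricellular protein of injured tissue, had 84.2 to 709 on flow cell A and 0 to 17.8 elsewhere and was among the genes set aside. COL1A1, a chain of fibrillar collagen I, had 48.0 to 103 against 2.72 to 25.7 (log2 difference 2.63, limma adjusted p = 0.00569). TAGLN, an actin-binding protein of smooth muscle and myofibroblasts, had 188 to 744 against 28.6 to 134 (difference 2.63, adjusted p = 0.00598). The libraries of flow cell A lay above all others for COL1A1 and TAGLN. These genes were named for their low p in this same comparison, so that the separation adds no support. The same was so for 1.72% of all genes, with 2.51% below, and for 0 of 8 members.

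In the latency list, THBS1, or thrombospondin 1, which can free TGF-beta from its latent complex, rose by 2.12 (adjusted p = 0.0178). ITGB1, an integrin beta chain, and FBN1, or fibrillin 1, which anchors latent complexes in the matrix, rose by 0.93 and 1.13 (adjusted p = 0.0264 and 0.0322). The regulator called was FKBP1A, which binds the type I receptor, at 0.93 (adjusted p = 0.0407). FKBP1A also binds ryanodine receptors in muscle. SMAD5, a SMAD of the BMP branch, differed by 0.76 and FSTL1, a follistatin-like protein, by 0.89, but neither passed (adjusted p = 0.123 and 0.063).

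These counts depended on single libraries. Without cat 11, and without cat 31, they fell from 9 to 2 (COL1A1 and TAGLN), and the number of all genes called fell to 51 and 129. Against flow cell C alone COL1A1 was the 1 gene of the 75 called. Without scaling, 7 of the 75 and 80 of all genes were called, 75 of the 80 being higher, whereas with scaling 141 of 446 were higher.

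Markers of the cell types differed on flow cell A too. MYBPC3, TNNT2 and TNNI3, which encode sarcomere proteins of cardiomyocytes, had log2 differences of -1.82, -1.05 and -1.64 (adjusted p = 0.00233, 0.00874 and 0.0145). They had the lowest p of the 8 cardiomyocyte markers tested, of which 7 were lower and 5 passed the adjusted threshold. MYL2 differed by only -0.16, and ACTC1 was higher, by 0.59. Summed cardiomyocyte markers were 108325 to 178734 against 110375 to 230610. Smooth muscle and pericyte markers that reached the read minimum outside flow cell A were higher for 3 of 3 genes, with 0 called. RGS5, PDGFRB and KCNJ8 differed by 0.03, 0.43 and 0.89. CNN1, a smooth muscle calponin, had 47.1 to 439 against 0 to 19.2. It reached the read minimum only through flow cell A and is set aside. The summed smooth muscle and pericyte markers, which include CNN1, were 201 to 754 against 114 to 188. Macrophage markers that reached the minimum outside flow cell A were higher for 6 of 6 genes (sum of all 7, 210 to 545 against 108 to 1303). Fibroblast markers were higher for 4 of 6 (262 to 1052 against 282 to 730), with 0 called in both lists. CD3D and MS4A1, which define T and B cells, and GP1BA, a platelet gene, had 0 reads in all libraries. Other genes of these lists were detected. PTPRC, on the lymphocyte list, had 0 to 15 reads per library. Summed lymphocyte markers reached 19.1 in cat 38 and summed platelet markers 43.6 in cat 15. The part of these differences in the values of the pathway genes was not tested.

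**Figure D5:**
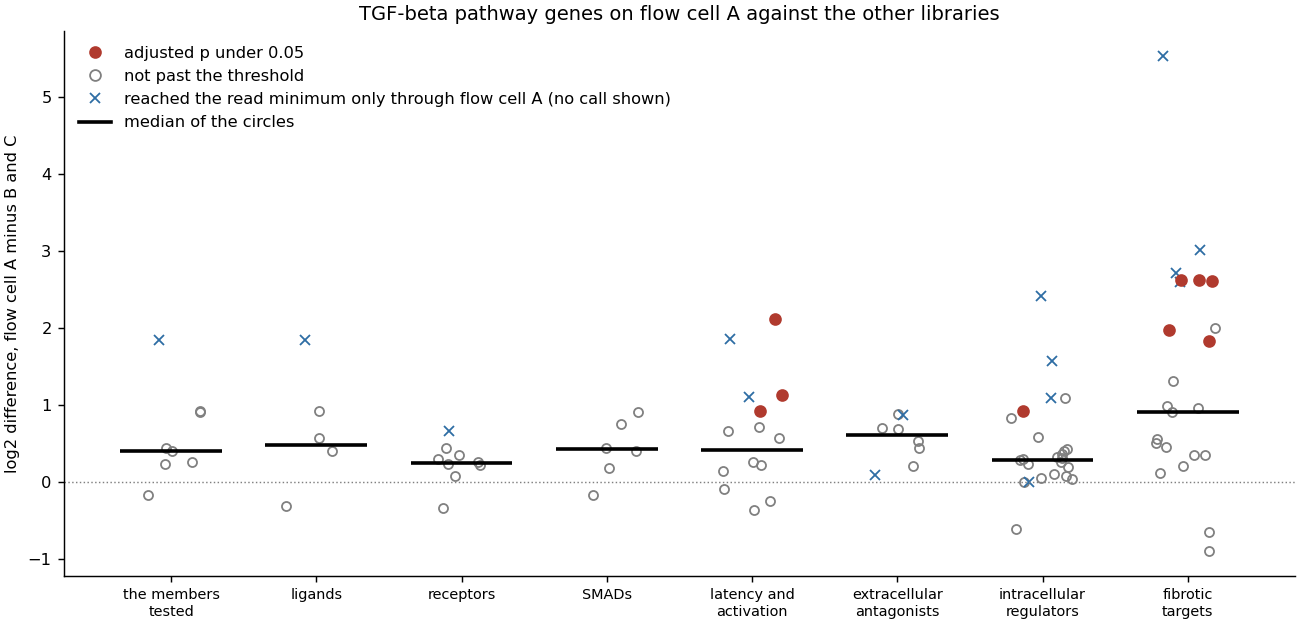
Log2 difference between flow cell A and flow cells B and C for the tested members and for each list of TGF-beta pathway genes, 1 symbol per gene, with circles filled where the limma adjusted p was under 0.05 and a black line at the median of the circles. Crosses are genes, TGFB2 among them, that reached the read minimum only through flow cell A. Filled circles occur among fibrotic targets (5 of 19), latency and activation (3 of 12) and intracellular regulators (1 of 20), and the other 7 members have none.

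With fibrosis, 0 of 88 pathway genes (INHBB left out) passed the adjusted threshold, and with age and outcome 0 of 89, beside 0% of all genes in each comparison. Among the genes other than members, MMP2, a protease that can release TGF-beta, had the lowest rho, at -0.905 for fibrosis (exact permutation p = 0.00456, adjusted p = 1). CYR61, a matricellular target gene, and ZFYVE16, or endofin, an endosomal adaptor that binds SMADs, were positive at 0.786 and 0.762 (exact permutation p = 0.0279 and 0.0368, adjusted p = 1 for both). The fibrotic target list was positive for 16 of 23 genes, beside 48.6% of all genes, with a median rho of 0.119 against 0 for all genes. With age the same list was positive for 6 genes and negative for 16, beside 46.6% of all genes that were positive. Between outcomes it was higher in ATE for 8 and lower for 15, beside 50.2% of all genes that were higher.

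With age, ACVR1, a type I receptor for BMPs and activins, had a rho of 0.733 (exact permutation p = 0.0311, adjusted p = 0.897). CREBBP, a coactivator of SMADs, had 0.783 (exact permutation p = 0.0172, adjusted p = 0.851), and CDKN1A, a cell cycle inhibitor that TGF-beta can induce, had -0.7 (exact permutation p = 0.0433, adjusted p = 0.897). Between ATE and congestive HF, ASPN, a matrix proteoglycan that binds TGFB1, differed by 1.27 ± 0.56 and was higher in ATE (limma adjusted p = 0.96). It had only 0 to 17 reads per library and reached the read minimum only through flow cell A. The activin receptors ACVR1B and ACVR1C, through which activin B can signal, were listed with 0 reads in all libraries.

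The genes whose log2(value + 1) was most like that of each member over the 12 libraries were also named, out of 8715 genes. These correlations describe the libraries, which share depth and flow cell, and they were the highest of many. INHBB was closest to ASPH, an aspartate hydroxylase gene (r = 0.892), and PRSS23, a serine protease (r = 0.881), and both kept an r of 0.896 and 0.867 after flow cells were centred. TGFB2 was closest to HOMER1, a scaffold protein (r = 0.939), TUBB2A, a beta-tubulin (r = 0.936), and COL8A1, a collagen VIII chain (r = 0.928), which became 0.928, 0.818 and 0.813 after centring.

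TGFBR2 was closest to HNRNPA1, a splicing factor, with r of 0.948 and 0.976 after centring, and to MVP, the major vault protein (r = 0.886). TGFBR1 was closest to BOLA2B (r = 0.912), SMAD2 to FBXO22 (r = 0.927), TGFB1 to TFE3 (r = 0.847), SMAD7 to ADAM15 (r = 0.835) and TGFBR3 to RNF114 (r = 0.833). For each member, the closest other member ranked between 175 and 784 among the 8715 genes. TGFB2 and SMAD2 were the closest pair of members, with r of 0.649 and 0.429 after centring, followed by TGFBR1 and TGFBR2 with 0.526 and 0.428.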

How the data were processed

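The authors called bases with Guppy, kept reads with a Phred score over 7, aligned these to felCat9 with Minimap2 and used featureCounts for gene counts. The deposited values are a signal, reads divided by 1 size factor per library (0.699 to 2.07). The division is not described in the methods, but 100% of values came out as whole reads (relative tolerance 1e-06). Outcome, age and fibrosis were matched to libraries by the cat number in their labels. Genes were tested with 10 reads in 3 of 10 libraries (8715 of 30785, 18070 with a read). Traits were tested by Spearman's rho with exact permutation, and groups with limma (intensity trend) on log2(value + 1), with Benjamini-Hochberg adjustment over 8715 genes. edgeR and DESeq2 were run on recovered reads. A fold change on this scale understates changes of low genes.

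The members and lists were chosen with earlier results of these data known. Genes outside the members were named by a rule: up to 3 per list and comparison past the adjusted threshold, otherwise the lowest p in each direction, and the genes most like a member. Markers and pathway genes were matched by symbol, and LEFTY2, MYH7, PF4, PPBP and MSLN were among those without a row. The limma and edgeR fits and the Spearman tests were tried on simulated data, and the other steps were not. Gene coordinates and lengths were not used here. Alternatives were other scalings, pseudocounts (0.5, 2), filters, tools, covariates, total fibrosis and leaving out cats. Tools were R 4.3.3, limma 3.58.1, edgeR 4.0.16, DESeq2 1.42.0, matplotlib 3.10.9, scipy 1.17.1, pandas 2.3.3, numpy 2.4.6 and Python 3.11.15.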

Additional observations from a re-analysis of the deposited data

Results flagged for a closer look

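Each member was examined for a library far from the others within congestive HF and within each flow cell, which gave 40 groups of values, and 3 were found, where chance gives about 1 in 20. On flow cell A, the TGFB3 value of cat 23 was 8.06 from 6 reads, and the next highest was 1.93. On flow cell B, the TGFBR1 value of cat 35 was 33.1 from 42 reads, and the next highest was 16.3. On flow cell A, the TGFBR3 value of cat 31 was 19.1 from 24 reads, whereas the other 3 libraries lay between 25.3 and 25.6.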

How the results depend on the processing

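No paired analysis was possible because no cat, and so no replicate number, was in more than 1 group, and flow cell was fitted as a covariate instead. Of the members tested, which for fibrosis leave out INHBB, 0 passed the adjusted threshold for fibrosis, age or outcome in the alternatives run, but a single rho over 8 or fewer cats could not have passed. On flow cell A, TGFB2 passed without cat 22 (0 to 1 member over the leave-one-out fits) and against flow cell B alone (1), and it was tested only because it was high on flow cell A. DESeq2 gave no adjusted p for TGFB2 there. Pathway genes called on flow cell A numbered 3 to 16 when each library was left out and 3 against flow cell C alone. All genes called there numbered 446 with limma, 435 with edgeR and 864 with DESeq2, and between outcomes 0, 0 and 1.

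Signs of the small estimates moved, and the cause was not tested. Reads without scaling shifted the median of all genes to -0.36 (rho, fibrosis), -0.35 (rho, age), -0.21 (outcome) and 0.41 (flow cell), and turned fibrosis rho for TGFB1 (-0.167), TGFBR1 (-0.488), TGFBR3 (-0.347), SMAD2 (-0.0952) and SMAD7 (-0.0719), age rho for TGFBR3 (-0.31), outcome for TGFB2 (-0.07) and INHBB (-0.13) and flow cell for SMAD7 (0.22). For fibrosis, TGFB1 turned with total fibrosis (-0.0476), TGFBR1 with Pearson's r (-0.135), limma (-0.09), limma with flow cell (-0.18) and edgeR (-0.15), and SMAD2 with Pearson's r (-0.0666) and limma without (-0.06) and with flow cell (-0.12). For age, entering cats 22 and 29 turned TGFB1 (0.00909), TGFB2 (0.145), TGFBR3 (-0.109) and SMAD2 (0.0273), and TGFBR2 turned with Pearson's r (0.0699), limma (0.03) and edgeR (0.03). For outcome, edgeR and DESeq2 turned TGFB2 (-0.14 and -0.07) and SMAD2 (0.09 and 0.10).

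Leaving out 1 cat turned signs over these ranges: with fibrosis TGFB1 -0.0357 to 0.464, TGFBR1 -0.0357 to 0.536 and SMAD2 -0.143 to 0.536; with age TGFB1 -0.357 to 0.0238, TGFB2 -0.262 to 0.143 and TGFBR2 -0.333 to 0.238; between outcomes TGFB2 -0.62 to 0.89, INHBB -0.33 to 0.47, TGFBR3 -0.36 to 0.07 and SMAD2 -0.70 to 0.59; on flow cell A SMAD7 -0.36 to 0.07. TGFBR1, TGFBR2, TGFB1 and SMAD7 stayed lower in ATE in every alternative run. At 40 to 387 reads per member other than TGFBR2, small differences could not be resolved.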

Other observations

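The libraries without a group held the highest values of 3 members. Cat 22 had the highest TGFB1 (43.2) and SMAD7 (43.2) of the 12 libraries, from 32 reads each, and a TGFB2 value of 16.2. Cat 29, on the same flow cell, had 8.87, 5.54 and 1.11 for these genes, but the highest TGFBR3 (48.8, from 44 reads), and its TGFBR2 value of 145 was exceeded only by cat 35 (155). TGFB1 and SMAD7 were thus both high in cat 22 and both low in cat 29, which is a description of 2 libraries. Other libraries differed from this. Cat 37 had the lowest TGFB1 value (4.29) with a SMAD7 value of 17.2, and cat 31 had a TGFB1 value of 37.5 with a SMAD7 value of 8.77.

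Among the BMP genes of the lists, SMAD6, the inhibitory SMAD of the BMP branch, had a rho with age of 0.667 (exact permutation p = 0.0589, adjusted p = 0.911). BMP6, a BMP ligand, had 0.6 (exact permutation p = 0.0968, adjusted p = 0.918), and neither passed the test. Both were named as the positive genes with the lowest p of their lists, members left out. SMAD5 and BMPR2, named in the other direction, had rho of -0.183 and -0.05. Over all genes, 46.6% had a positive rho with age.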
